A study of Mus musculus with 2 samples.

Results

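The genes of retinoic acid handling are described here as 9 named genes of the 32285 in the count matrices, taken by symbol. Earlier results of these data were known when the genes were chosen. They are Stra6, Dhrs3, Aldh1a2, Crabp1, Crabp2, Cyp26a1, Rara, Rarg and Rxra. The samples were gastruloids, aggregates of about 300 mouse embryonic stem cells that begin to form the axes and layers of an embryo in culture. The cells were R1 embryonic stem cells, labelled wild type and treatment "Control", and cells labelled as a double mutant of Sp5 and Sp8 (Sp5/8 dko), with the treatment given as "Mutant". Both groups grew in serum-free N2B27 medium and received 3 µM CHIR, an activator of Wnt signalling through inhibition of GSK3, at day 2, and aggregates were pooled within a genotype at day 2.5, 12 hours later. Each genotype gave 1 droplet library of 3′ ends, and the labels do not say how many clones the mutant line represents or which part of Sp5 and Sp8 was deleted.

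Retinoic acid is made inside cells from retinol, which enters through the STRA6 receptor, is oxidised to retinal (a step that DHRS3 reverses) and then to retinoic acid by retinal dehydrogenases such as ALDH1A2. CRABP1 and CRABP2 carry it in the cytoplasm, CRABP2 towards nuclear receptors made of a RAR and an RXR, while CYP26A1 hydroxylates it for removal. In the gastrulating mouse embryo the balance of ALDH1A2 and CYP26 enzymes sets where the signal acts along the trunk, and Cyp26a1 is itself a classical target of the receptors.

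The library labelled wild type (called the WT-labelled library below) kept 8707 cells and the library labelled double knockout (the dko-labelled library) 10587, with medians of 10571 and 8637 UMIs (counted molecules) per cell. The labels state 9238 and 11190 captured cells with 5333 and 5398 genes per cell at the median, against medians of 3275 and 2884 genes in the kept cells. Sp5 went against the genotype labels, with 109.1 UMIs per 1000000 (CPM) in the WT-labelled library and 478.7 CPM in the other, and so did Sp8, with 20.8 and 40.1 CPM. Reads from a 3′ end outside a deletion would not check it, so every direction below is between libraries as labelled. Primed epiblast markers, the defining genes for cells at this stage, summed to 991 and 1076 CPM, and extraembryonic endoderm genes summed to 12.8 and 12.3 CPM. The primitive streak list was higher in the dko-labelled library (302.9 and 497.6 CPM), the neural list lower (17.0 and 8.92 CPM), and a stress list higher (37.0 and 53.3 CPM). With 1 library per genotype no test was possible, and all 95% intervals cover counting error only. Genotype and library cannot be told apart.

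Promoter windows of 250 bases upstream of RefSeq start sites (GRCm38.p6) were found for 8 of the 9 genes, in 18 windows, and Crabp2 had no match. The windows were searched on both strands for direct repeats of the half-site AGGTCA, the related AGTTCA, the related GGGTCA and the related GGTTCA, spaced by 1, 2 or 5 bases, the arrangements that RAR and RXR pairs bind, and for the GC box GGGCGG, the core of the motif bound by SP-family zinc fingers. Of the 18 windows, 1 held a repeat spaced by 5 bases, that of Cyp26a1, and none held a repeat spaced by 1 or 2 bases. Among all 32851 RefSeq windows of this length, 0.0883% held the 5-base spacing, 0.164% the 1-base spacing and 0.174% the 2-base spacing. A GC box lay in 10 of the 18 windows, of 6 genes, and in 32.7% of all windows. The Cyp26a1 window is shown because it holds the repeat, and the Crabp1 window because it held 5 GC boxes and Crabp1 gave the most uneven counts of the 9 genes. In both, capitals mark the motif letters, as they run on the gene's strand.
Cyp26a1, chr19:37697558-37697807, plus strand: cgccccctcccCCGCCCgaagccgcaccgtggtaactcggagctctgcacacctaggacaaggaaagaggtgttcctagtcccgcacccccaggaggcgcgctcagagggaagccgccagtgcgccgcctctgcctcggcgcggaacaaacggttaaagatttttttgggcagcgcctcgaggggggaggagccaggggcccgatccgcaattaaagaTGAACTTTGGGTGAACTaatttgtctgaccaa
Crabp1, chr9:54764498-54764747, plus strand: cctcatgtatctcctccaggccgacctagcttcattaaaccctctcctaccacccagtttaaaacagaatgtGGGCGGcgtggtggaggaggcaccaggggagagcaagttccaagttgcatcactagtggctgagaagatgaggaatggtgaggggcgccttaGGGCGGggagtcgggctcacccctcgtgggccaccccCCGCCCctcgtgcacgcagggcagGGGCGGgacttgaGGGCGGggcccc
Cyp26a1 repeat, chr19:37697776-37697792, read on the minus strand: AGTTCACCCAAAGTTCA
The repeat begins 32 bases before the RefSeq start, and the GENCODE start, given with the gene's position below, lies upstream of that one, inside the window. These matches describe letters only, and no binding was measured.

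Between the libraries, Crabp2 was the one gene of the 9 that differed by more than the size limit, and it was lower in the dko-labelled library. Its carrier paralog Crabp1 and the receptors Rara, Rarg and Rxra differed little, and the synthesis gene Aldh1a2 and the clearance gene Cyp26a1 were close to undetected in both. The limit was a log2 ratio of 0.25 in size among genes with a mean of at least 10 CPM, which 4 of the 9 genes passed (Crabp1, Crabp2, Rara and Rarg). Of these 4, 1 was called lower and 0 higher, beside 4.67% of all 7607 genes called lower and 3.13% called higher. The median log2 ratio of the 4 was -0.14, against -0.02 over all 7607 genes, whose 1st and 99th percentiles were -0.39 and 0.38.

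**Figure D1:**
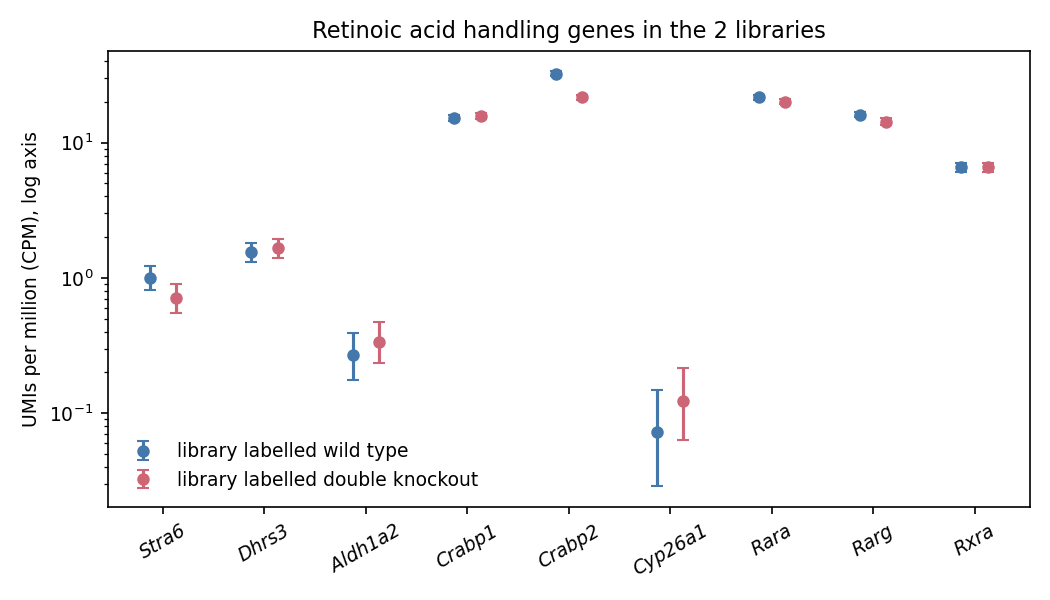
CPM (log axis) of each gene in the WT-labelled library (blue) and the dko-labelled library (red), ordered from retinol uptake to receptors; points are 1 library each and bars are exact 95% Poisson intervals of the summed counts. Crabp2 is at 32.4 and 21.6 CPM with intervals that lie apart, and those of Rarg also lie apart. The intervals of Crabp1, Rara, Rxra, Dhrs3, Stra6, Aldh1a2 and Cyp26a1 overlap. Heights are not compared between genes.

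Stra6 (chromosome 9, 58063788 to 58153996, plus strand), the cell-surface retinol receptor, had 97 UMIs (1.00 CPM) in the WT-labelled library and 69 (0.71 CPM) in the dko-labelled library. The log2 ratio was -0.50 (-0.97 to -0.04), an interval that reaches close to 0. A single cell held 8 of the 97 UMIs, and cells with 4 or more UMIs held 13 of them. Stra6 overlaps Ccdc33 on the other strand and Gm16131 on its own strand, and the use of strand in counting is not given in the sources used here, so its counts are uncertain. Dhrs3 (chromosome 4, 144892827 to 144928209, plus strand), the reductase that returns retinal to retinol, had 151 and 162 UMIs, or 1.55 and 1.66 CPM, with a log2 ratio of 0.09 (-0.23 to 0.42). The libraries were indistinguishable for Dhrs3 at this depth.

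Aldh1a2 (chromosome 9, 71215789 to 71296243, plus strand), the main retinoic acid synthase of the early embryo, had 26 UMIs in 25 cells of the WT-labelled library and 33 UMIs in 32 cells of the other. Cyp26a1 (chromosome 19, 37697798 to 37701536, plus strand) had 7 UMIs in 7 cells and 12 UMIs in 9 cells. Both genes were thus near the floor of detection, and a difference between libraries was not detectable: the intervals of the log2 ratios ran from -0.45 to 1.14 for Aldh1a2 and from -0.69 to 2.35 for Cyp26a1. A single cell of the dko-labelled library held 4 of the 12 Cyp26a1 UMIs. That cell also held 3 UMIs of the extraembryonic endoderm list, and it accounts for all 4 Cyp26a1 UMIs in the 46 cells with at least 2 UMIs of that list. The corresponding 65 cells of the WT-labelled library held 1 of the 7 UMIs.

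Crabp1 (chromosome 9, 54764748 to 54773110, plus strand) had 15.3 CPM (14.5 to 16.1) in the WT-labelled library and 15.8 CPM (15.0 to 16.6) in the dko-labelled library. The log2 ratio was 0.05 (-0.06 to 0.15). Crabp2 (chromosome 3, 87948666 to 87953376, plus strand) had 32.4 CPM (31.3 to 33.6) from 3149 UMIs and 21.6 CPM (20.7 to 22.5) from 2106 UMIs. It was 1.50-fold lower in the dko-labelled library, a log2 ratio of -0.59 (-0.67 to -0.51). The carriers therefore stood apart from one another: Crabp2 lay below the 1st percentile of all genes and Crabp1 near their median.

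Of the receptors, Rara (chromosome 11, 98927818 to 98974942, plus strand) had 21.6 and 20.0 CPM, a log2 ratio of -0.11 (-0.20 to -0.02). Rarg (chromosome 15, 102234938 to 102257517, minus strand), a RAR known from the caudal embryo, had 16.1 and 14.3 CPM and a log2 ratio of -0.17 (-0.28 to -0.07). Rxra (chromosome 2, 27676440 to 27762957, plus strand), a partner of both, had 6.59 and 6.54 CPM and a log2 ratio of -0.01 (-0.17 to 0.15). Over all cells, the receptor messages thus lay within the size limit between libraries, and the counting intervals of Rara and Rarg lay below 0.

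The rest of the pathway was read from a list of 39 other genes, of which 38 had a row and 12 reached the mean of 10 CPM. None of the 12 was called higher and 1 was called lower, beside 3.13% and 4.67% of all 7607 genes. The median log2 ratio of the 12 was 0.00. The receptor Rxrb had 17.8 and 20.7 CPM (log2 ratio 0.21). Among retinol dehydrogenases, Rdh11 and Adh5 both had log2 ratios of 0.04. The fatty acid binding protein Fabp5, which can also carry retinoic acid, had 550.6 and 543.9 CPM (-0.02). The coactivator Ncoa3 had a ratio of -0.10. The called gene was Gbx2, a homeobox gene of the hindbrain boundary that responds to retinoic acid, with 24.1 and 18.0 CPM and a log2 ratio of -0.42 (-0.51 to -0.33). Adh7, Dhrs9 and Cyp26c1 had no UMI in either library, which allows up to 0.031 CPM in each. Meis2, a retinoic acid target named after its values were seen, had 10.6 and 4.87 CPM (-1.12, -1.28 to -0.96), with a mean under the limit on levels. Likewise chosen after their values were seen, the receptor Rxrg had 7.82 and 10.5 CPM (0.43, 0.29 to 0.57), also with a mean under that limit, and Hoxb1 had 23 and 21 UMIs and the receptor Rarb 8 and 3.

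Fewer cells of the dko-labelled library held a Crabp2 UMI. After every cell was thinned to 2500 UMIs, 7.43% of cells in the WT-labelled library and 5.03% in the other held one, and 25.5% and 15.9% did without thinning. For Crabp1 the thinned shares were 3.19% and 3.80%, and the unthinned shares 12.6% and 12.2%. Thinned shares were 5.05% and 4.69% for Rara and 4.10% and 3.47% for Rarg. Their unthinned shares were 21.1% and 16.4%, and 16.2% and 12.1%. The order of the libraries for Crabp1 therefore changed with depth, while Crabp2 kept its order. Barcodes with 1 to 100 UMIs, which hold mostly free RNA, gave 36.8 and 19.9 CPM for Crabp2 and 15.6 and 14.8 CPM for Crabp1, so free RNA can give single UMIs to cells that lack the message. Its part in the shares was not tested.

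Cells were next split by markers: T, a primitive streak and mesoderm regulator, Eomes, a streak and endoderm regulator, and Irx3, a homeobox gene of the early neural plate, each at 1 or more UMIs, and a neural list of 10 genes at 2 or more UMIs. In the WT-labelled library 26.0%, 43.4%, 15.5% and 3.23% of cells were positive for T, Eomes, Irx3 and the neural list. The dko-labelled library had 29.3%, 61.8%, 6.21% and 1.25%. Eomes and Irx3 each overlap an annotated antisense gene, so a class can hold reads of either strand. Positive cells were the deeper ones for T and Eomes, with medians of 11773 against 10129 UMIs for T and 11546.5 against 9786 for Eomes in the WT-labelled library. A gene was called here at a log2 ratio of 0.5 in size among genes with a mean of at least 10 CPM.

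Crabp2 was lower in Eomes-positive cells and higher in Irx3-positive and neural-positive cells, in both libraries. Eomes-positive cells of the WT-labelled library had 24.1 CPM and its Eomes-negative cells 40.2 CPM, a log2 ratio of -0.74 (-0.84 to -0.63). The dko-labelled library had 18.8 and 27.0 CPM (-0.52, -0.65 to -0.39), a call that was lost after thinning to 2500 UMIs, with -0.38 (-0.66 to -0.10). The call was made for 0.603% of all genes on the lower side in the first library and 0.501% in the second, and for 0.682% and 0.422% on the higher side. T-positive cells had 24.8 CPM against 35.6 CPM in the WT-labelled library (-0.52, -0.64 to -0.40), where 0.302% of all genes were called lower and 0.472% higher. T-positive cells of the dko-labelled library had 18.0 against 23.3 CPM (-0.38, -0.52 to -0.24), which was not called, beside 0.237% of genes lower and 0.224% higher. Crabp2 thus took the side away from the streak markers in each library.

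Irx3-positive cells had 48.9 CPM of Crabp2 against 29.0 CPM in the WT-labelled library, a log2 ratio of 0.75 (0.63 to 0.87). Those of the dko-labelled library had 38.3 against 20.4 CPM, a log2 ratio of 0.91 (0.72 to 1.10). Shares of all genes called were 0.497% higher and 0.615% lower in the first library, and 0.903% and 0.681% in the second. In the cells positive for the neural list Crabp2 had 56.2 against 31.6 CPM (0.83, 0.61 to 1.05) and 38.6 against 21.3 CPM (0.86, 0.41 to 1.27). These neural classes are small, and 5.25% of genes were called higher and 2.89% lower in the WT-labelled library, and 10.2% and 5.57% in the other. The neural calls are therefore less set apart from the background than those for Irx3. Other lists also differed by neural status: paraxial mesoderm genes had 17.5 against 8.12 CPM in the WT-labelled library and 9.66 CPM in the positive cells of the other. Extraembryonic endoderm genes had 12.1 against 12.8 CPM and 34.6 against 12.0 CPM. Their part in these ratios was not tested.

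**Figure D2:**
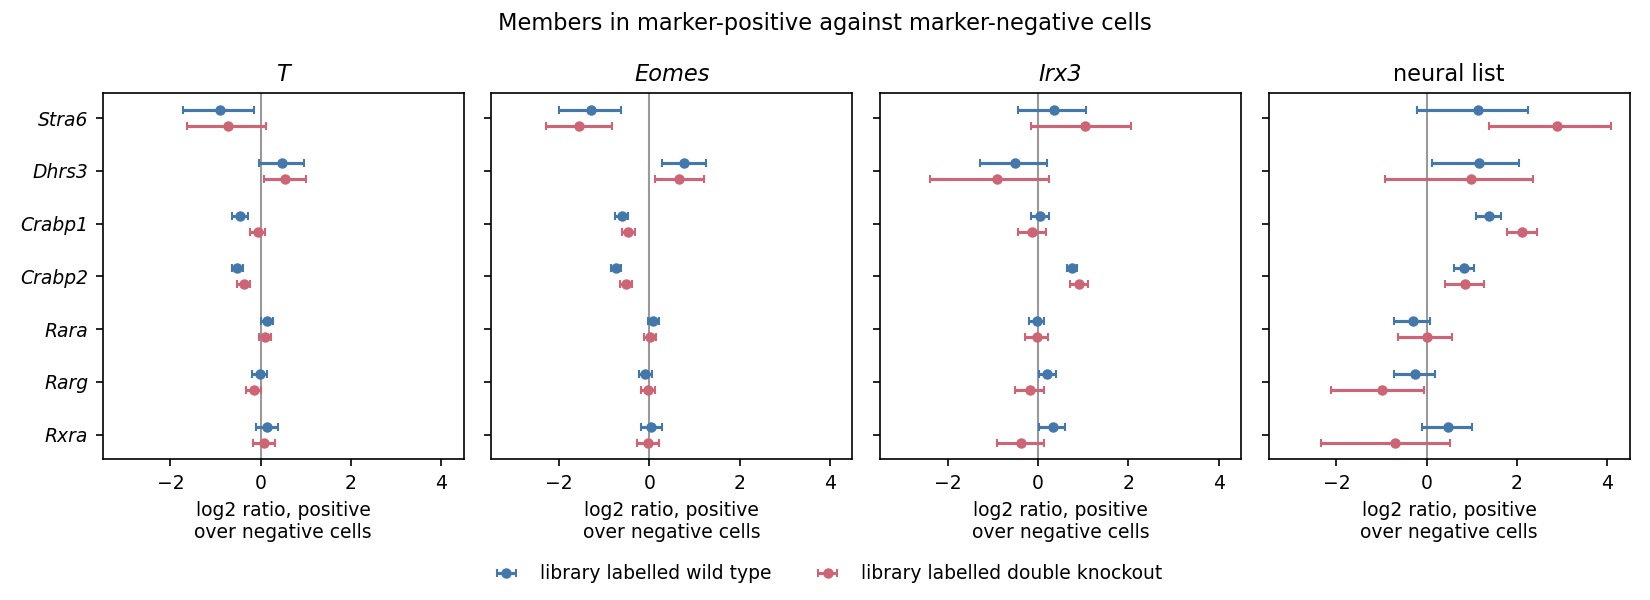
Log2 ratio of CPM, marker-positive over marker-negative cells, for the genes other than Cyp26a1 and Aldh1a2; panels are the 4 markers, colours the 2 libraries, and bars exact 95% counting intervals. Crabp2 lies left of 0 for T and Eomes and right of 0 for Irx3 and the neural list in both libraries, and Rara lies within 0.31 of 0 throughout; of the 281 and 132 neural-positive cells behind the Crabp1 points, 7 and 3 held 4 or more Crabp1 UMIs.

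Crabp2 followed the number of marker UMIs as well as their presence. With 0, 1, 2 to 3, 4 to 7 and 8 or more Eomes UMIs, it had 40.2, 28.9, 22.0, 19.9 and 14.6 CPM in the WT-labelled library. Over the same bins the dko-labelled library had 27.0, 21.3, 18.4, 17.5 and 13.7 CPM. Each step was downward in both libraries, and the libraries differed most among cells without Eomes. The median depth rose over these bins from 9786 to 15824 UMIs in the WT-labelled library, and its part in the trend was not tested. With 0, 1, 2 and 3 or more Irx3 UMIs, Crabp2 had 29.0, 45.1, 57.8 and 59.6 CPM in the WT-labelled library and 20.4, 34.4, 57.7 and 62.0 CPM in the other. The last bin held 135 and 29 cells, and its intervals overlapped those of the bin before.

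**Figure D3:**
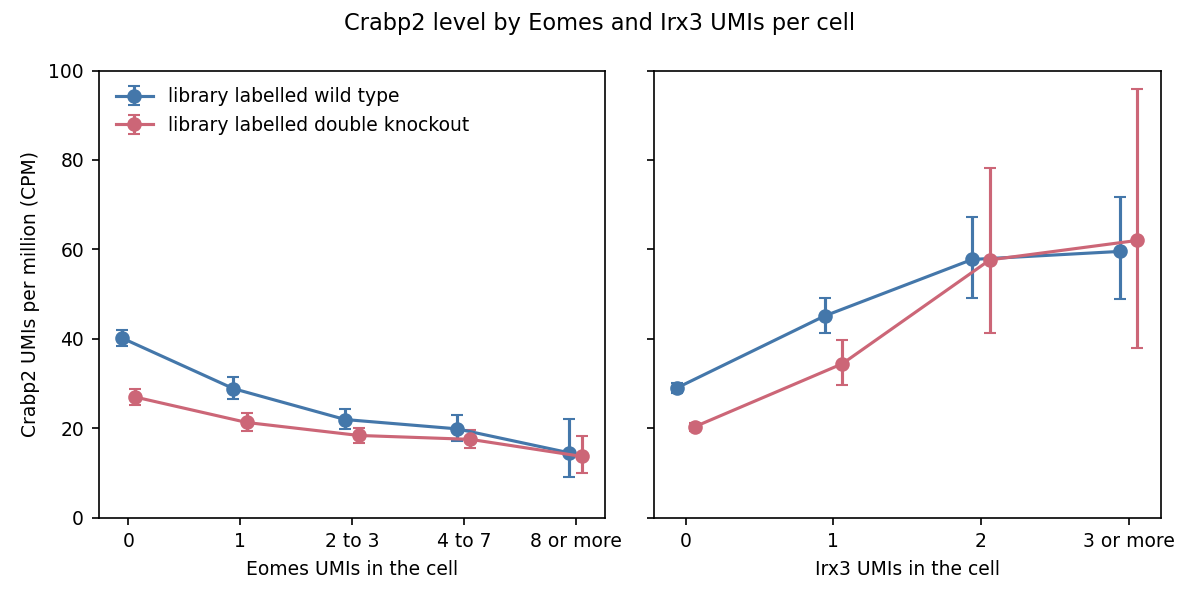
Crabp2 level (CPM) by the number of Eomes UMIs (left) and Irx3 UMIs (right) in the cell; each point sums the cells of 1 bin in 1 library and bars are exact 95% Poisson intervals. The level declines from 40.2 to 14.6 CPM and from 27.0 to 13.7 CPM along Eomes, and climbs along Irx3 until the libraries meet at 57.8 and 57.7 CPM with 2 Irx3 UMIs.

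The composition of the libraries by these markers differed, so Crabp2 was also compared within cells of the same status. It was lower in the dko-labelled library in T-positive cells (log2 ratio -0.46, -0.62 to -0.31), in Eomes-positive cells (-0.36, -0.48 to -0.24) and in Irx3-positive cells (-0.35, -0.56 to -0.15). In neural-positive cells the ratio was -0.54 (-1.03 to -0.08). Of all genes, 6.37%, 4.06%, 7.83% and 19.7% were called lower in these 4 classes, and 4.21%, 2.89%, 6.68% and 17.7% higher. Among cells with 2 or more Irx3 UMIs, however, the ratio was 0.01 (-0.41 to 0.42). Over the 8 combinations of T, Eomes and Irx3 status, Crabp2 was lower in the dko-labelled library in 6, each with an interval below 0 (the nearest ended at -2.2e-05). The share of all genes that did so was not computed. The Crabp2 ratio was -0.39 when both libraries were given the same weights for the 8 combinations. Each weight was the mean of the combination's shares of UMIs in the libraries.

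The combinations show where Crabp2 was high. Cells with Irx3 alone had 59.5 CPM in the WT-labelled library and 46.9 CPM in the dko-labelled library. Cells negative for all 3 had 37.3 and 26.8 CPM. Cells with T and Eomes but not Irx3 had 20.6 and 17.9 CPM, a log2 ratio of -0.20 (-0.41 to 0.00), and cells with T alone had 29.3 and 16.3 CPM (-0.85, -1.22 to -0.49). The difference between libraries was thus smaller in cells with T and Eomes but not Irx3 than in cells with T alone, by intervals that do not overlap. It was not small in cells with all 3 markers, at 31.7 and 18.2 CPM (-0.80, -1.59 to -0.07). Cells with T and Irx3 but not Eomes had 43.4 and 50.2 CPM (0.21, -0.63 to 0.99). In cells with Eomes and Irx3 but not T the libraries matched, at 35.9 and 35.9 CPM (0.00, -0.40 to 0.40).

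Genes whose levels ran most like Crabp2 over the 16 sums of library by combination were Rgma (Pearson r = 0.96), Nucks1 (0.94), Zswim6 (0.93), Sox2 (0.92) and Epha4 (0.92). Sox2 is a regulator of pluripotent and neural cells, and Rgma and Epha4 are cell-surface proteins of the neural plate and of axon guidance. For Crabp1 the nearest was Adprh (0.89), for Rara Faim (0.86) and for Rarg the splicing factor Rbm39 (0.89). These are descriptions over 16 sums that share 2 libraries and differ in depth, the smallest holding 378268 UMIs.

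Crabp1 differed from Crabp2 in its spread over cells. In the WT-labelled library 17 cells held 4 or more Crabp1 UMIs, up to 54 in a cell, and together held 256 of 1484 UMIs (17.3%). The dko-labelled library had 12 such cells, up to 51, with 128 of 1542 UMIs (8.30%). Crabp2 reached 8 and 5 UMIs in a cell, and no receptor more than 4. Such cells were 0.195% and 0.113% of each library, and most other cells with any Crabp1 held a single UMI. The limit of 4 UMIs was set after the values were seen.

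**Figure D4:**
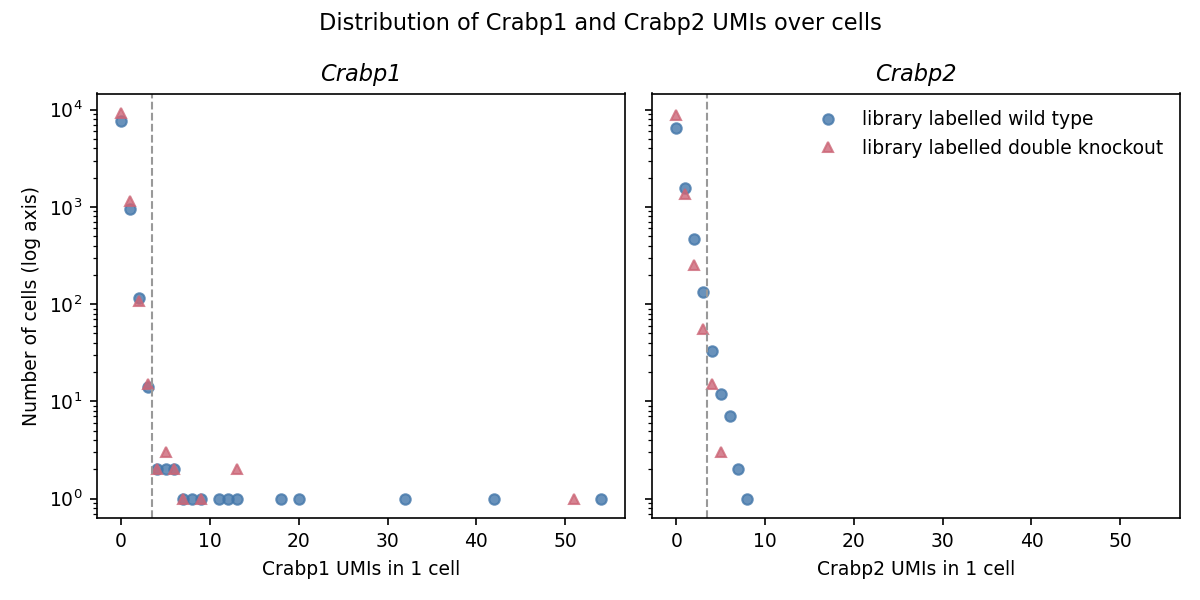
Number of cells (log axis) by the number of Crabp1 UMIs (left) and Crabp2 UMIs (right) in the cell, for both libraries; the dashed line separates cells with 4 or more UMIs. Crabp1 has a tail of single cells that reaches 54 and 51 UMIs, while Crabp2 ends at 8 and 5.

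The Crabp1-rich cells were also described by depth, markers and other messages. Their median depth was 8339 and 7020 UMIs, below that of other cells (10574 and 8642), and 1 of the 17 and 0 of the 12 lay over 2 times the median UMIs of their library. Among the 17 cells 7 were positive for the neural list, 1 for Eomes, 3 for Irx3 and 0 for T, which allows up to 17.6% of such cells. Among the 12 cells 3 were positive for the neural list, 2 for Eomes, 2 for T and 0 for Irx3, which allows up to 25%. The neuronal tubulin Tubb3 had a UMI in 15 and 11 of them (88.2% and 91.7%), and also in 58.1% and 54.6% of the other cells. The genes most enriched in their summed counts over other cells were Atoh1, Barhl2, Ebf3, Chgb and Cryba1, followed by Thsd7b, Insm1, Ebf2, Elavl4 and Robo2. How many of the cells held each of these genes was not counted, so sharing among the cells is not shown. Atoh1, Ebf2, Ebf3 and Insm1 are transcription factors of neurogenesis, and Elavl4 is an RNA-binding protein of neurons. Summed counts of Atoh1 were 23 and 16 UMIs and those of Onecut2 88 and 18 UMIs. Primitive streak genes had 18.4 and 88.2 CPM in these cells, against 303.4 and 498.0 CPM in the others. Paraxial mesoderm genes had 55.1 CPM, from 9 UMIs, against 8.36 CPM in the WT-labelled library. The 12 cells of the other library held 1 UMI of that list. No cell type is named for them, since they were picked by a member's own counts. Crabp2 had 11 and 2 UMIs in them, and Rara 1 and 0.

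Much of the marker pattern of Crabp1 rested on these few cells. In neural-positive cells it had 37.5 against 14.5 CPM in the WT-labelled library (log2 ratio 1.37, 1.09 to 1.64) and 66.0 against 15.1 CPM in the other (2.12, 1.78 to 2.44). Without the cells of 4 or more UMIs these ratios were -0.62 (-1.23 to -0.07) and 0.17 (-0.54 to 0.80). The sign therefore turned in the WT-labelled library. Crabp1 was also high in the 81 cells of that library with 2 or more UMIs of the paraxial mesoderm list. It had 44.2 against 15.0 CPM there (1.56, 1.08 to 2.00). The 47 such cells of the dko-labelled library had 17.9 against 15.8 CPM (0.18, -0.88 to 1.07). The part of cells with 4 or more Crabp1 UMIs in these 2 ratios was not tested. In Eomes-positive cells Crabp1 had 12.0 against 18.4 CPM (-0.62, -0.77 to -0.46) and 14.0 against 19.4 CPM (-0.47, -0.62 to -0.32), of which the first was called. Without those cells both were much smaller, at -0.20 (-0.37 to -0.04) and -0.19 (-0.35 to -0.03). For T the ratios were -0.45 (-0.63 to -0.28) and -0.07 (-0.23 to 0.09), and the first became -0.09 without those cells. For Irx3, Crabp1 had 15.6 against 15.2 CPM (0.04, -0.16 to 0.23) and 14.5 against 15.9 CPM (-0.13, -0.44 to 0.17). The sign changed with the setting, but each interval included 0, so no side was established. In the WT-labelled library the ratio was -0.73 (-1.81 to 0.16) after thinning and -0.34 (-0.76 to 0.04) with 2 or more Irx3 UMIs asked for. Without the cells of 4 or more Crabp1 UMIs it was -0.20 (-0.43 to 0.03). In the other library it was 0.39 (-0.57 to 1.21) after thinning. Between the libraries, Crabp1 without those cells had a log2 ratio of 0.20 (0.08 to 0.31), still within the size limit.

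Between the libraries, the Crabp1 ratio within T-positive cells also rested in part on Crabp1-rich cells. Cells with T and Eomes but not Irx3 included no Crabp1-rich cell and had 11.4 and 13.8 CPM (0.27, 0.02 to 0.53). T-positive cells had 12.1 CPM in the WT-labelled library and 15.3 CPM in the dko-labelled library (log2 ratio 0.33, 0.13 to 0.53), a call on the higher side, but 0.16 (-0.05 to 0.37) without the cells of 4 or more UMIs, which is no call. Cells with T alone had 14.5 and 23.6 CPM (0.71, 0.33 to 1.08), and 14.5 and 13.4 CPM (-0.11, -0.55 to 0.32) once 2 such cells of the dko-labelled library were left out. Eomes-positive cells had 12.0 and 14.0 CPM (0.22, 0.07 to 0.38), and the ratio was 0.23 without them. In Irx3-positive cells the ratio was -0.10 (-0.46 to 0.24) with all cells and 0.37 (-0.01 to 0.73) without them. Neural-positive cells had 37.5 and 66.0 CPM (0.82, 0.40 to 1.23), a call on the higher side, and the ratio was 0.97 (0.06 to 1.86) without them. Over the 8 combinations Crabp1 was higher in the dko-labelled library in 4, and in 6 without those cells, with 3 intervals above 0 and none below either way. The share of all genes that did so was not computed.

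Stra6 and Dhrs3 took opposite sides of Eomes, at levels too low to be counted among the calls. Stra6 had 0.57 CPM in Eomes-positive cells and 1.40 CPM in negative cells of the WT-labelled library (log2 ratio -1.29, -1.99 to -0.63), and 0.43 and 1.26 CPM in the other (-1.55, -2.30 to -0.82). These came from 27 and 70 UMIs in the first library and 28 and 41 in the second. Dhrs3 had 1.97 and 1.16 CPM (0.76, 0.27 to 1.26) and 1.89 and 1.20 CPM (0.66, 0.13 to 1.22). Both directions held in both libraries with intervals away from 0. Neural-positive cells had 7 Stra6 UMIs in the WT-labelled library (2.12 against 0.96 CPM) and 6 in the other (4.83 against 0.65 CPM). Dhrs3 there had 11 and 4 UMIs.

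Of the receptors, Rara stayed within 0.31 of 0 over the same markers. It had log2 ratios of 0.14 (0.00 to 0.27) and 0.10 (-0.03 to 0.24) for T, and 0.09 and 0.01 for Eomes. Rarg was called lower in neural-positive cells of the dko-labelled library, from 9 UMIs (7.24 against 14.4 CPM, -0.99, -2.12 to -0.06). In the WT-labelled library the same contrast was -0.25 (-0.71 to 0.18). Rarg in Irx3-positive cells had 18.2 CPM in the WT-labelled library and 12.7 CPM in the other (-0.52, -0.88 to -0.16). By the limit of 0.25 between libraries it was called lower there, in T-positive cells (-0.26, -0.45 to -0.06) and in neural-positive cells (-0.91, -2.13 to 0.14). Eomes-positive cells gave no call (-0.13, -0.28 to 0.01). Of all genes, 7.83%, 6.37% and 19.7% were called lower in Irx3-, T- and neural-positive cells, and 6.68%, 4.21% and 17.7% higher. Rarg was lower in the dko-labelled library in 8 of 8 combinations, with 1 interval below 0 and as few as 4 UMIs in a sum. The share of all genes that did so was not computed. Rxra, under the limit on levels, had log2 ratios of 0.14 and 0.08 for T and 0.05 and -0.04 for Eomes. For Irx3 it had 7.90 against 6.32 CPM in the WT-labelled library (0.32, 0.03 to 0.60) and 5.14 against 6.65 CPM in the other (-0.37, -0.91 to 0.13). For the neural list it had 9.07 against 6.50 CPM (0.48, -0.10 to 1.01) and, from 5 UMIs, 4.02 against 6.58 CPM (-0.71, -2.34 to 0.52). The signs for Irx3 and the neural list were thus opposite in the libraries, with 1 of the 4 intervals away from 0. Between the libraries, Rxra in Irx3-positive cells had 7.90 and 5.14 CPM (-0.62, -1.21 to -0.06). The intervals of Rarg and Rxra in Irx3-positive cells overlap those over all cells. After thinning to 2500 UMIs the Rarg ratio in Irx3-positive cells was 0.014 (-1.55 to 1.45).

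Some cells had at most 0.8 times the median share of UMIs from chromosome 11, 17.6% in the WT-labelled library and 5.83% in the dko-labelled library. Rara lies on chromosome 11 and had 18.9 CPM in these cells against 22.1 CPM in the others, and 15.9 against 20.2 CPM in the second library. Crabp1, on chromosome 9, had 8.37 against 16.5 CPM and 9.31 against 16.1 CPM. Without the cells of 4 or more Crabp1 UMIs these were 8.37 against 13.4 CPM and 8.08 against 14.8 CPM. Crabp2 was on the other side, with 38.1 against 31.4 CPM and 24.6 against 21.4 CPM. In cells with as low a share from chromosome 6, Rara had 18.7 against 22.3 CPM and 17.8 against 20.5 CPM. Many cells were low on both chromosomes, so these values cannot show whether the lower Rara is particular to its own chromosome. In the WT-labelled library 1843 cells were low on chromosome 6 and 1532 on chromosome 11. Leaving out both kinds kept 6539 of its 8707 cells. The part of these cells in the marker contrasts was read by leaving out cells low on chromosome 6 or 11, after which the Crabp1 ratio for the neural list in the WT-labelled library was 0.62 (0.22 to 1.00).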

How the data were processed

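Droplet 3′ single-cell libraries were deposited as UMI counts per gene and barcode by the authors. The submitters' processing notes name STARsolo, STAR 2.7.9a, Seurat 5.1.0 and mm10, and the labels' protocols name Cell Ranger 8.0.1. Barcodes with at least 2500 UMIs, 1000 genes and at most 10% mitochondrial UMIs were kept, and 27 kept barcodes occurred in both libraries. No doublet caller was run. Counts were summed over cells, scaled to CPM and compared as log2 ratios with exact conditional Poisson intervals, and shares were given exact binomial intervals where stated, using Python 3.11.15 and scipy 1.17.1. The procedure was tested on simulated counts. Calls needed a mean of 10 CPM. Named were all 9 members, the markers, in each role of the pathway list at most the 2 largest ratios among genes passing 10 CPM and any gene past 0.25, and the 5 nearest genes by Pearson r of log2(CPM + 1). Some listed pathway genes that the rule names are not reported here. Members and lists were chosen with earlier results of these data known. Gene positions are from GENCODE M21. Alternatives were TMM scaling (edgeR 4.0.16), other cell filters, thinning, stricter marker limits and other thresholds.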

Additional observations from a re-analysis of the deposited data

How the results depend on the processing

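Ratios between libraries moved under 2 alternatives. Crabp2 was -0.39 with the 8 marker combinations given the same weights in both libraries. Crabp1 was 0.20 without cells of 4 or more Crabp1 UMIs, a choice made after seeing the data. The TMM shift between libraries was -0.03, which was subtracted from the log2 ratio of every gene and so raised it. The Crabp2 marker ratios kept their direction in both libraries. In the WT-labelled library, the stricter marker limit (1 more UMI) gave -0.94 for Eomes and 1.01 for Irx3, and thinning to 2500 UMIs gave 1.23 for the neural list. In the dko-labelled library, the stricter limit gave 1.54 for Irx3, and thinning gave -0.38 for Eomes, 1.19 for Irx3 and 1.36 for the neural list. The interval of the last ran from -0.52 to 2.72 and included 0. Thinning left 0.655% and 0.274% of cells neural-positive in the 2 libraries. Crabp2 between libraries in Irx3-positive cells turned to 0.014 under the stricter limit, and Rarg there to 0.014 after thinning. The cause was not tested.

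The Crabp1 marker ratios were less stable. In the WT-labelled library, leaving out cells of 4 or more Crabp1 UMIs gave -0.085 for T, -0.20 for Eomes, -0.20 for Irx3 and -0.62, a change of sign, for the neural list. The stricter limit gave -0.70 for T, -0.34 for Irx3 and 1.69 for the neural list. Thinning gave -0.73 for Irx3 and 2.30 for the neural list, a mitochondrial limit of 5% gave 1.01 for the neural list, and leaving out cells low on chromosome 6 or 11 gave 0.62. For the dko-labelled library, leaving out cells of 4 or more Crabp1 UMIs gave -0.19 for Eomes and 0.17 for the neural list. Thinning gave 0.52 for T, -0.078 (-0.38 to 0.22) for Eomes and 0.39 (-0.57 to 1.21) for Irx3. For the neural list, with 0.274% of cells positive, it gave 4.48 (3.85 to 5.05). The stricter limit gave -0.34 for T and 3.22 for the neural list. Without thinning, cells with a UMI were 12.6% and 12.2% for Crabp1 and 25.5% and 15.9% for Crabp2.

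Counts of called members by marker moved as follows, each with the share of all genes called in either direction at that setting. In the WT-labelled library the stricter limit gave 2 for T (1.6% of genes), and leaving out cells of 4 or more Crabp1 UMIs gave 1 for Eomes (1.25%). Thinning gave 2 for Irx3 (9.71%), and a minimum of 1 CPM gave 2 for Irx3 (4.67%) and 4 for the neural list (20.3%). A doubled size limit gave 0 for T (0.105%), Eomes (0.262%) and Irx3 (0.157%) and 1 for the neural list (1.87%). For the dko-labelled library thinning gave 2 for T (2.12%), 0 for Eomes (0.765%) and 2 for Irx3 (17.8%). A minimum of 1 CPM gave 1 for T (2.44%), 2 for Eomes (3.63%), 3 for Irx3 (8.46%) and 6 for the neural list (31.8%), and a doubled size limit gave 0 for Eomes (0.145%), 0 for Irx3 (0.144%) and 1 for the neural list (3.61%). For the neural list, thinning called 45.4% and 55.3% of all genes in the 2 libraries. Of the other 241 values for these comparisons, ratios and shares stayed within the interval of the value reported. Counts among them stayed equal or close to the count reported, without regard to which genes were called or on which side.

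No paired analysis was possible because each genotype had 1 library and no replicate numbers. Leaving out a replicate had no place here for the same reason. Depth limits Cyp26a1, Aldh1a2, Stra6 and Dhrs3, and the neural-positive classes of 281 and 132 cells.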
